A study of Homo sapiens with 9 samples.

Results

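The genes described here encode 4 families of zinc-dependent proteases and their relatives, and the inhibitors that act on them. They were chosen by name in the deposited expression table: protein-coding genes whose symbols are ADAM, ADAMTS, ADAMTSL or MMP followed by a number (with a final letter allowed for MMP), and TIMP followed by a digit. The rule found 70 genes of the 57766 in the table: 20 ADAM, 19 ADAMTS, 5 ADAMTSL, 22 MMP and 4 TIMP genes. Of these, 36 reached at least 1 RPKM (reads per kilobase of transcript, scaled to the size of the library) in at least 3 libraries and are described in full. The other 34 lay below that level.

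All libraries came from HEK293 Freestyle cells, a human embryonic kidney line adapted to suspension, sequenced as polyadenylated RNA after 36 h of culture. The cells had been kept for at least 18 h at 1000000 cells/mL, washed in PBS and brought to 4000000 cells/mL before plating, and the labels also mention a wash with 500 µM EDTA. The groups were cells in Freestyle medium depleted of Zn(II) (depleted), cells in such medium to which Zn(II) was returned (repleted) and cells in complete Freestyle medium (full), with 3 biological replicates each and 9 libraries in all. How the medium was depleted is not given in the sources used here. As in any bulk measurement, fewer cells that express a gene and less RNA per cell cannot be told apart.

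ADAMs are membrane-anchored proteins, many of which release the outer parts of receptors, ligands and adhesion molecules from the cell surface. ADAMTS proteases are secreted and carry thrombospondin repeats that hold them in the matrix, while the ADAMTS-like proteins share those repeats but lack a protease domain. Matrix metalloproteases (MMPs) cut collagens and other extracellular proteins, and a subset is tethered to the membrane. Every active member holds a zinc ion in its catalytic site, and TIMPs inhibit these enzymes by inserting into the site and binding that zinc. Several ADAMs have lost the zinc-binding residues and act in cell adhesion instead.

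The upstream regions of the members with the largest changes are shown so that the start regions of genes that rose and of genes that fell without zinc can be compared. They are the 2 called rises and the 2 called falls with the largest change in depleted against full medium that have an entry in RefSeq's promoter table (GRCh38.p14), of which 24 of the 36 genes have one. MMP13 has no entry. MMP24 reached 1 RPKM only in depleted libraries, so its call carries no weight. Each sequence covers the 250 bases before the RefSeq start on the gene's strand, which need not be the start used in these cells. Capitals mark a core of the metal response element, TGCACNC or TGCGCNC on either strand, the motif bound by the zinc sensor MTF1.
MMP24 (chr20:35226440-35226689, plus strand): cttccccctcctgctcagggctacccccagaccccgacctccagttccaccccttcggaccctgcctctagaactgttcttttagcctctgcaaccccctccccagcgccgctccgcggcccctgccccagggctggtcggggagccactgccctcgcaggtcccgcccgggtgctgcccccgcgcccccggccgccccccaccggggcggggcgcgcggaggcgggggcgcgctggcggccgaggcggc
ADAMTS13 (chr9:133422117-133422366, plus strand): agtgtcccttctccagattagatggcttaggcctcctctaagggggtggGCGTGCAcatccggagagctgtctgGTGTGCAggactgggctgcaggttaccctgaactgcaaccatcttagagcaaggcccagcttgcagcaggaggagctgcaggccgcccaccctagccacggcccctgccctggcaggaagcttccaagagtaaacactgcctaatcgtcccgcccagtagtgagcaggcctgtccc
MMP15 (chr16:58025504-58025753, plus strand): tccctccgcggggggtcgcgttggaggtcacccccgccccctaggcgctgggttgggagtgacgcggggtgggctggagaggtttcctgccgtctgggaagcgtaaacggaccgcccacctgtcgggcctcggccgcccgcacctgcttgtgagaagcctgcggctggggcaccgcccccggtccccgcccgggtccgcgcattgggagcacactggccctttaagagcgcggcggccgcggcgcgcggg
ADAMTS17 (chr15:100341976-100342225, minus strand): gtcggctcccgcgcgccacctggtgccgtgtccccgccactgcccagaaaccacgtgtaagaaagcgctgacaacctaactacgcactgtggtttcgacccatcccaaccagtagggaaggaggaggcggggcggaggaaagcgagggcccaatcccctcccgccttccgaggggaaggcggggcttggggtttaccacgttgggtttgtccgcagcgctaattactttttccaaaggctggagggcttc
ADAMTS13, which rose without zinc, held the core at positions -201 and -176 from the start, and the other 3 regions held none. The core stood in the same window of 24.7% of all 27305 promoters in the table and of 10 of the 24 member promoters. By direction, it was in 2 of 5 promoters of genes that rose and 4 of 12 of genes that fell. It was in 4 of 7 of genes that were not called. The counts for genes that rose and fell include MMP24, and ADAM12, which reached 1 RPKM only in repleted and full libraries. The AP-1 site TGANTCA, searched on both strands, was in 6.6% of all promoters and in 0 of the 24, and the TATA box TATAAA in 11.1% and in 1, that of ADAMTS10. None of the 4 regions printed held the AP-1 site or the TATA box. A match describes letters only, and its absence in this window says nothing about the factor.

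Most of the expressed members were lower in depleted than in full medium, and a smaller group was higher. In depleted against full medium 21 of the 36 fell and 7 rose by limma's test (adjusted p under 0.05 over all 15774 genes tested). Changes were called for 77.8% of the members, against 60.9% of all genes tested, of which 29.8% rose and 31.2% fell. These and later shares of all genes cover every gene class, while all members are protein-coding. Among the 12892 protein-coding genes fitted alone, 4237 rose and 4622 fell by limma's test, a larger share than over all genes. The median log2 change of the members was -0.53, against 0.001 over all genes tested. Values below are log2 changes of RPKM + 1, which understate the change of weakly expressed genes, so for called members under 10 RPKM in every library the ratio of mean RPKM in depleted and full medium is given as well. The libraries of the 2 groups did not overlap for 29 of the 36, against 67.6% of all genes. Of the 7 rises, those of ADAM21, MMP13 and MMP24 passed the expression level only through the depleted libraries. Another 4 genes that fell (ADAM12, ADAMTS2, ADAMTS8 and ADAMTS16) passed it only through the repleted and full libraries. Genes that pass on one side only lie on opposite sides of 1 RPKM by that choice, so the calls of these 7 carry no weight in the counts. Without them 4 of 29 rose and 17 fell, 72.4% called with a median of -0.51, and 22 of 29 did not overlap. The share over all genes still includes genes that passed in the same way.

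**Figure D1:**
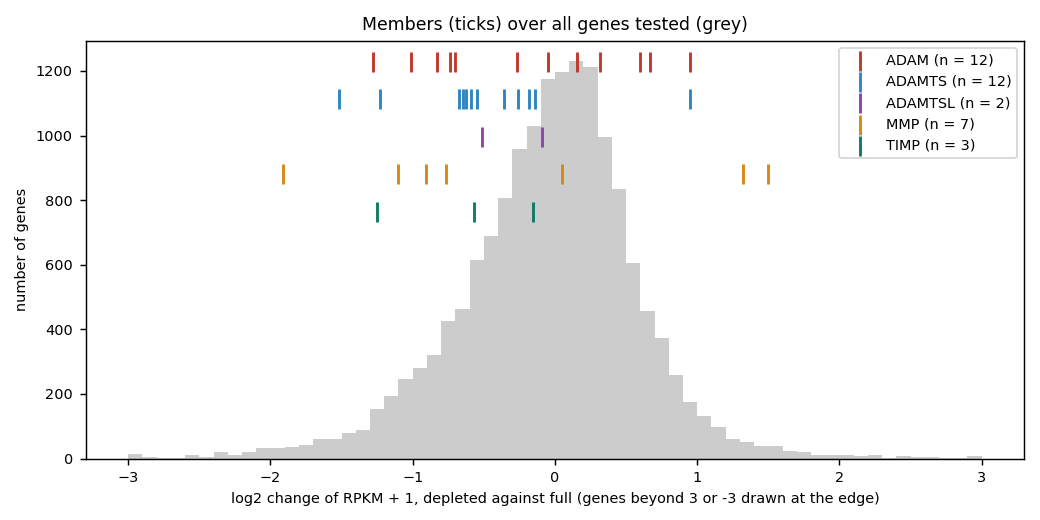
Log2 change of RPKM + 1 in depleted against full medium for all 15774 genes tested (grey, number of genes per bin of 0.1) and for the 36 members (ticks, 1 row per family). The members run from -1.91 to 1.5, and all 3 TIMPs lie left of 0.

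Membrane-type MMPs, which cut matrix proteins at the cell surface, held both the largest fall and the largest rise. MMP15 (ENSG00000102996), also known as MT2-MMP, had 1.67, 1.27 and 1.5 RPKM in depleted, 7.33, 7.59 and 8.30 in repleted and 8.68, 8.18 and 8.09 in full medium. Each depleted library lay below every other library, with means of 1.48 ± 0.201 RPKM in depleted and 8.32 ± 0.318 in full medium (SD, n = 3 each), 5.62-fold lower (log2 -1.91, SE 0.09, limma adjusted p = 1.35e-07). MMP17, a membrane-type MMP held by a lipid anchor, had 1.66, 1.66 and 1.39 RPKM in depleted, 4.19, 3.71 and 4.18 in repleted and 4.54, 4.77 and 4.28 in full medium (2.88-fold lower in depleted than in full, log2 -1.11, SE 0.09, limma adjusted p = 6.97e-06). MMP24 (ENSG00000125966), or MT5-MMP, known mainly from the nervous system, went the other way. It had 2.62, 2.28 and 2.29 RPKM in depleted, 0.34, 0.20 and 0.20 in repleted and 0.25, 0.21 and 0.15 in full medium. The depleted libraries stood far above both other groups, with a mean 11.8-fold that in full medium (log2 1.5, SE 0.14, limma adjusted p = 1.05e-05). MMP24 passed the expression level only through these libraries, so its call carries no weight. In estimated reads this was 248, 216 and 188 in depleted against 26, 19 and 13 in full libraries. Exons of MMP24 share 799 nucleotides with MMP24OS on the opposite strand in GENCODE 29, and whether the counting used strand is not given in the sources used here. MMP24OS had 17.79, 17.51 and 20.17 RPKM in depleted and 31.14, 32.20 and 31.23 in full medium, and its part in the MMP24 values was not tested.

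Among the other MMPs, a gelatinase fell. A collagenase, MMP13, was higher in depleted medium. It passed the expression level only through the depleted libraries, so its call carries no weight. MMP2 (gelatinase A), whose proenzyme is activated at the cell surface with the help of TIMP2, had 3.80, 3.63 and 3.20 RPKM in depleted, 7.80, 7.02 and 6.52 in repleted and 7.07, 8.80 and 6.79 in full medium (2.13-fold lower in depleted than in full, log2 -0.91, SE 0.11, limma adjusted p = 6.77e-05). Its depleted libraries did not overlap the others. MMP13 (ENSG00000137745), collagenase 3, had 2.02, 1.78 and 1.96 RPKM in depleted, 0.19, 0.24 and 0.07 in repleted and 0.17, 0.27 and 0.07 in full medium, and its mean in depleted was 11.3-fold that in full medium (log2 1.32, SE 0.15, limma adjusted p = 4.21e-05). It stayed at or below 0.27 RPKM in every repleted and full library, with 72, 63 and 60 estimated reads in depleted and 7, 9 and 2 in full libraries. MMP11, stromelysin 3, averaged 0.947 ± 0.192 RPKM in depleted and 2.33 ± 0.537 in full medium (SD, n = 3 each; 2.46-fold lower, log2 -0.77, limma adjusted p = 0.00226). MMP11 shares 218 exonic nucleotides with CHCHD10 on the opposite strand, which had 81.98 to 87.24 RPKM in depleted and 164.83 to 179.83 in full medium, and the part of CHCHD10 in the MMP11 values was not tested. MMP23B, which has a near-identical copy in MMP23A and whose reads may be split with it, had 0.97 to 1.53 RPKM in depleted and 0.67 to 1.72 in full medium and was not called (log2 0.05, 95% interval -0.43 to 0.53). MMP23B shares 37 exonic nucleotides with CDK11B on the opposite strand, which had 62.95 to 72.84 RPKM in depleted and 54.82 to 61.78 in full medium. The part of CDK11B in the MMP23B values was not tested.

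**Figure D2:**
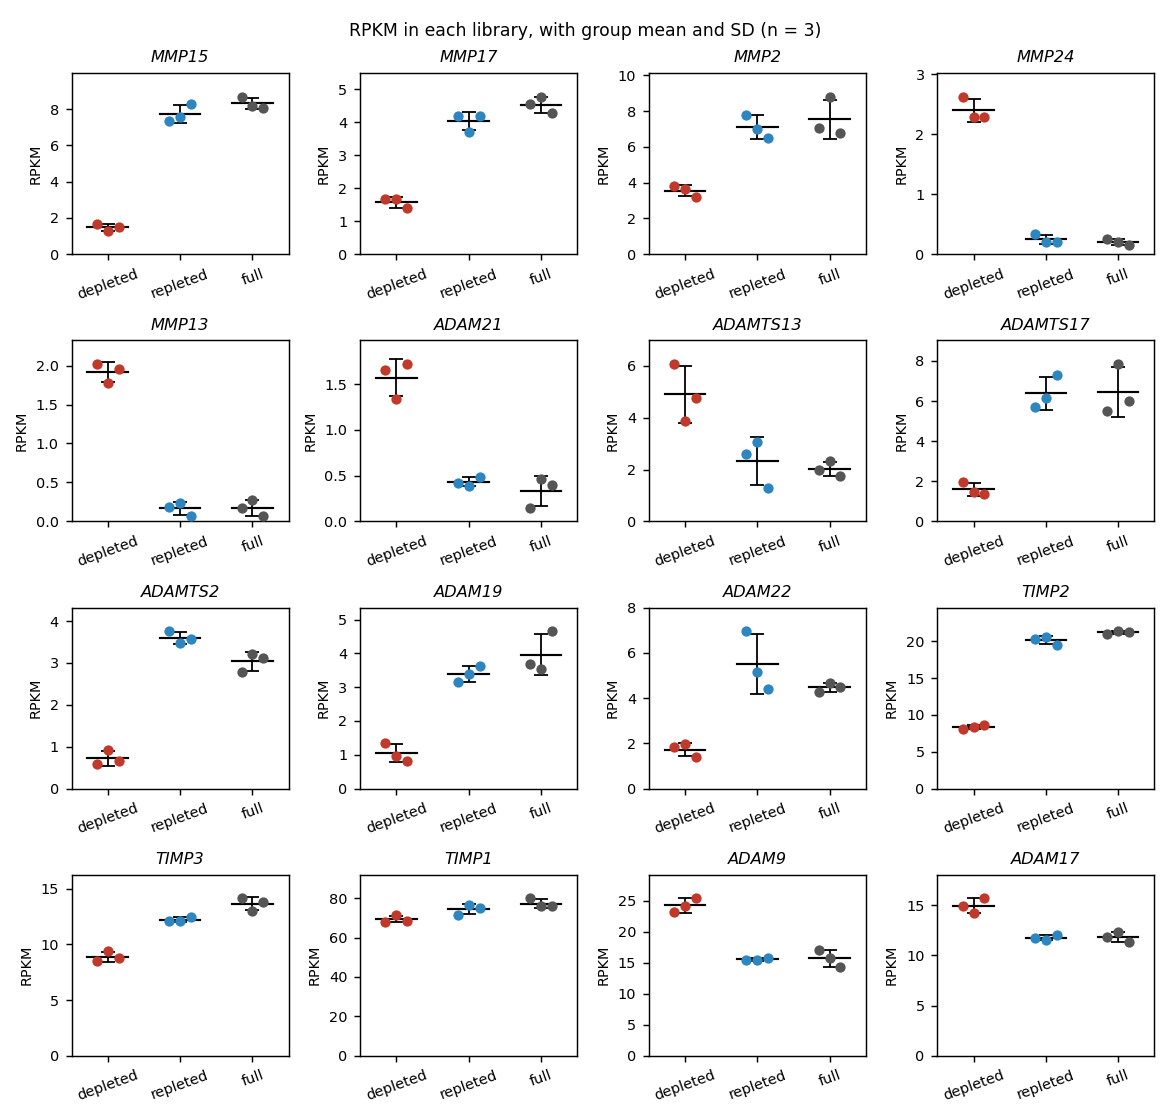
RPKM of 16 members in each of the 9 libraries, 1 panel per gene, with depleted, repleted and full medium from left to right (points: libraries, horizontal line and bars: mean and SD, n = 3, vertical axis from 0). MMP24, MMP13, ADAM21, ADAMTS13, ADAM9 and ADAM17 are highest in depleted medium, and the other 10 genes are lowest there.

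All 3 TIMPs above the expression level fell in depleted against full medium, where 31.2% of all genes fell. The size of the fall differed widely among them. TIMP2 (ENSG00000035862), which inhibits MMPs and takes part in the activation of MMP2, had 8.06, 8.42 and 8.59 RPKM in depleted, 20.37, 20.58 and 19.54 in repleted and 20.97, 21.40 and 21.31 in full medium. It was the most tightly measured of the large falls, 2.54-fold lower than in full medium (log2 -1.25, SE 0.05, limma adjusted p = 5.19e-08). TIMP3, which binds to the matrix and also inhibits ADAM17 and several ADAMTS proteases, had 8.49, 9.36 and 8.78 RPKM in depleted, 12.06, 12.12 and 12.44 in repleted and 14.13, 13.01 and 13.79 in full medium (log2 -0.57, SE 0.06, limma adjusted p = 2.67e-05). TIMP1, the most abundant member in each group by mean RPKM, had 68.13, 71.21 and 68.63 in depleted, 71.51, 76.36 and 75.17 in repleted and 79.93, 75.90 and 75.95 in full medium. Its fall was called but small (log2 -0.15, SE 0.04, limma adjusted p = 0.00673), and median centring of the libraries ended the call (limma adjusted p = 0.0502). TIMP4 was below the expression level, with at most 0.23 RPKM in any library. TIMP2 shares 367 exonic nucleotides with the antisense transcript AC022966.1, which had 1.71 to 3.46 RPKM in depleted and 2.37 to 5.33 in full medium; its part in the TIMP2 values was not tested.

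Of 12 ADAMs that carry a catalytic zinc site 8 were tested, of which 4 rose, 2 fell and 2 were not called, where 29.8% of all genes rose and 31.2% fell. Without ADAM21 and ADAM12, which passed the expression level on one side only, 3 of 6 rose and 1 fell. ADAM9, a widely expressed sheddase, had 23.15, 24.22 and 25.43 RPKM in depleted, 15.40, 15.46 and 15.78 in repleted and 17.13, 15.75 and 14.32 in full medium (log2 0.60, SE 0.07, limma adjusted p = 4.44e-05). ADAM15, which also binds integrins, had 63.84, 58.02 and 59.22 RPKM in depleted, 42.75, 38.17 and 34.07 in repleted and 40.76, 37.01 and 34.97 in full medium (log2 0.67, SE 0.08, limma adjusted p = 9.25e-05). In both genes every depleted library exceeded every other library. ADAM17, the enzyme that releases TNF and ligands of the EGF receptor, had 14.94, 14.26 and 15.68 RPKM in depleted, 11.71, 11.57 and 12.01 in repleted and 11.81, 12.29 and 11.28 in full medium. Its rise was 1.27-fold (log2 0.32, SE 0.06, limma adjusted p = 0.000995). ADAM17 shares 1323 exonic nucleotides with IAH1 on the opposite strand, which had 18.84 to 21.24 RPKM in depleted and 24.03 to 28 in full medium, and the part of IAH1 in the ADAM17 values was not tested.

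ADAM10, the main sheddase of Notch and of the amyloid precursor protein, was not called. It had 17.33, 16.88 and 22.34 RPKM in depleted, 20.39, 19.53 and 15.11 in repleted and 17.50, 17.24 and 15.44 in full medium, so the groups overlapped (log2 0.15, 95% interval -0.13 to 0.44 against full medium). ADAM21, known from testis, had 1.65, 1.34 and 1.72 RPKM in depleted, 0.42, 0.39 and 0.49 in repleted and 0.15, 0.46 and 0.40 in full medium. That was 4.66-fold the mean in full medium (log2 0.95, SE 0.15, limma adjusted p = 0.000464). ADAM21 passed the expression level only through the depleted libraries, so this call carries no weight. ADAM19, which sheds neuregulins, fell: it had 1.34, 0.97 and 0.83 RPKM in depleted, 3.15, 3.40 and 3.63 in repleted and 3.69, 3.54 and 4.66 in full medium (3.79-fold lower in depleted than in full, log2 -1.28, SE 0.13, limma adjusted p = 2.44e-05). ADAM19 shares 62 exonic nucleotides with CYFIP2 on the opposite strand, which had 61.46 to 63.28 RPKM in depleted and 60.87 to 65.13 in full medium. The part of CYFIP2 in the ADAM19 values was not tested. ADAM12, a relative of ADAM19, was also lower, with 0.723 ± 0.0611 RPKM in depleted and 2.09 ± 0.471 in full medium (SD, n = 3 each). That was 2.89-fold lower (limma adjusted p = 0.000653). ADAM12 passed the expression level only through repleted and full libraries, so this call carries no weight. ADAM8, known from leukocytes, had 0.84 ± 0.311 RPKM in depleted and 1.25 ± 0.63 in full medium and was not called (log2 -0.26, 95% interval -0.76 to 0.23).

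Of 8 ADAMs without a catalytic zinc site 4 were tested, of which 3 fell and 1 was not called, where 31.2% of all genes fell and 60.9% were called. ADAM22, a neuronal receptor for the secreted protein LGI1, had 1.83, 1.96 and 1.38 RPKM in depleted, 6.96, 5.16 and 4.40 in repleted and 4.27, 4.65 and 4.49 in full medium (2.59-fold lower in depleted than in full, log2 -1.01, SE 0.15, limma adjusted p = 0.000247). Its depleted libraries lay below all others, and the repleted libraries were the most spread. The related ADAM11 and ADAM23, both best known from the brain, averaged 4.83 ± 0.651 and 3.48 ± 0.304 RPKM in depleted, against 8.48 ± 0.817 and 6.47 ± 0.51 in full medium (SD, n = 3 each). They were 1.75-fold and 1.86-fold lower, with log2 changes of -0.70 and -0.74 (limma adjusted p = 0.000277 and 0.00017). ADAM32, known from testis, had 1.35 ± 0.144 RPKM in depleted and 1.43 ± 0.175 in full medium (log2 -0.05, 95% interval -0.38 to 0.28) and was not called.

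**Figure D3:**
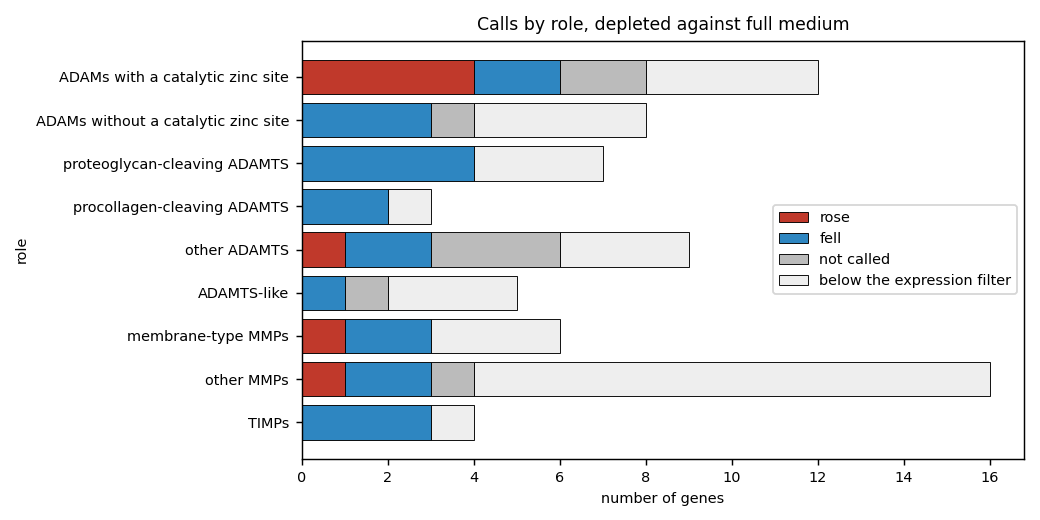
Number of genes that rose, fell, were not called or lay below the expression level in depleted against full medium, by role (horizontal bars, 1 per role). The bars include the 7 genes that passed the expression level on one side only, among them ADAM21, ADAMTS2 and ADAMTS8. The 3 tested TIMPs fell, where 31.2% of all genes did, and none of these TIMPs is such a gene.

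Of the 12 ADAMTS genes tested 8 fell, 1 rose and 3 were not called, where 31.2% of all genes fell and 29.8% rose. Without ADAMTS2, ADAMTS8 and ADAMTS16, which passed the expression level through repleted and full libraries only, 5 of 9 fell. In the group that cuts proteoglycans such as versican and aggrecan, ADAMTS1, ADAMTS9 and ADAMTS15 fell. ADAMTS8 was also called lower, but it passed the expression level on one side only, so its call carries no weight. ADAMTS4 of this group, below that level, averaged 0.387 RPKM in depleted and 0.177 in full medium. ADAMTS1, the most abundant ADAMTS gene, averaged 55.5 ± 2.36 RPKM in depleted and 71.4 ± 2.69 in full medium (SD, n = 3 each; log2 -0.36, SE 0.04, limma adjusted p = 5.91e-05). ADAMTS8, ADAMTS9 and ADAMTS15 averaged 0.61 ± 0.0529, 1.67 ± 0.166 and 1.04 ± 0.0945 RPKM in depleted, against 1.49 ± 0.295, 2.91 ± 0.0404 and 2.19 ± 0.0416 in full medium, or 2.44-fold, 1.74-fold and 2.11-fold lower in depleted. Of the procollagen N-proteinases, ADAMTS2 and ADAMTS3 were tested. ADAMTS2, which trims the amino end of fibrillar procollagens, had 0.58, 0.92 and 0.67 RPKM in depleted, 3.76, 3.48 and 3.58 in repleted and 2.78, 3.22 and 3.11 in full medium. It was 4.2-fold lower in depleted than in full medium (log2 -1.23, SE 0.11, limma adjusted p = 1.07e-05). ADAMTS2 passed the expression level on one side only, so this call carries no weight. ADAMTS3, which also activates VEGF-C, averaged 1.23 ± 0.0416 RPKM in depleted and 2.36 ± 0.127 in full medium (1.92-fold lower, log2 -0.59, limma adjusted p = 0.000578).

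The remaining ADAMTS genes were mixed. ADAMTS17 (ENSG00000140470), mutated in a Weill-Marchesani-like syndrome, had 1.96, 1.45 and 1.38 RPKM in depleted, 5.71, 6.14 and 7.31 in repleted and 5.51, 7.85 and 5.99 in full medium. It was 4.03-fold lower in depleted than in full medium, with no overlap (log2 -1.51, SE 0.14, limma adjusted p = 1.41e-05). ADAMTS13, the protease of von Willebrand factor, was the only ADAMTS gene called higher. It had 6.07, 3.86 and 4.76 RPKM in depleted, 2.61, 3.08 and 1.29 in repleted and 1.99, 2.31 and 1.76 in full medium (2.42-fold the full mean in depleted, log2 0.95, SE 0.22, limma adjusted p = 0.00397). The depleted libraries spread widely and still lay above the rest. ADAMTS16 averaged 0.487 ± 0.0351 RPKM in depleted and 1.37 ± 0.186 in full medium (2.82-fold lower, limma adjusted p = 0.00148). It passed the expression level only through repleted and full libraries, so its call carries no weight. ADAMTS7, a protease of the cartilage protein COMP, ADAMTS10, which is linked to fibrillin microfibrils, and ADAMTS19 were not called, with log2 changes of -0.14, -0.19 and -0.26. The depleted libraries of ADAMTS19 nevertheless lay below the full ones. Of the ADAMTS-like genes, ADAMTSL5 fell to 1.31 ± 0.214 RPKM in depleted, against 2.28 ± 0.0721 in full medium (1.75-fold lower, limma adjusted p = 0.00361), and ADAMTSL3 was not called (log2 -0.09, 95% interval -0.42 to 0.23).

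Depleted against repleted medium differs only in the returned Zn(II), as far as the labels say. It shares the depleted libraries with the comparison above, so its values stand beside the others and are not independent of them. In it 7 members were higher and 20 lower in depleted medium, 75.0% of 36 against 60.7% of all genes tested. Among the 12892 protein-coding genes fitted alone, 4261 were higher and 4561 lower. The groups did not overlap for 30 of the 36 members, against 65.2% of all genes. Without the 7 genes that passed the expression level on one side only, 4 of 29 were higher and 16 lower, 69.0% called, and 23 of 29 did not overlap. MMP15, ADAMTS17, ADAMTS2, ADAM22 and TIMP2 had the largest falls, with log2 changes of -1.82, -1.51, -1.42, -1.24 and -1.18. The rises of MMP24, MMP13, ADAMTS13 and ADAM21 were 1.45, 1.33, 0.85 and 0.84, and those of ADAM15, ADAM9 and ADAM17 were 0.65, 0.61 and 0.32. ADAMTS2, MMP24, MMP13 and ADAM21 passed the expression level on one side only, so their calls carry no weight here either. ADAMTS10 averaged 1.85 ± 0.117 RPKM in depleted and 3.42 ± 0.542 in repleted medium (SD, n = 3 each; log2 -0.63, SE 0.13, limma adjusted p = 0.00204). MMP11 (log2 -0.31, limma adjusted p = 0.123), ADAMTSL5 (log2 -0.25, limma adjusted p = 0.0843) and ADAMTS19 (log2 -0.30, limma adjusted p = 0.129) were not called. In each of these genes the libraries of the groups did not overlap. TIMP1 stood at the threshold (log2 -0.10, limma adjusted p = 0.0497), and the call was lost in 12 of 18 other settings, with limma adjusted p between 0.0208 and 0.339. Leaving out full replicate 2 or 3, depleted replicate 1 or 3, or repleted replicate 2 or 3 was enough to lose it, with limma adjusted p of 0.0652, 0.0608, 0.133, 0.122, 0.147 and 0.113.

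**Figure D4:**
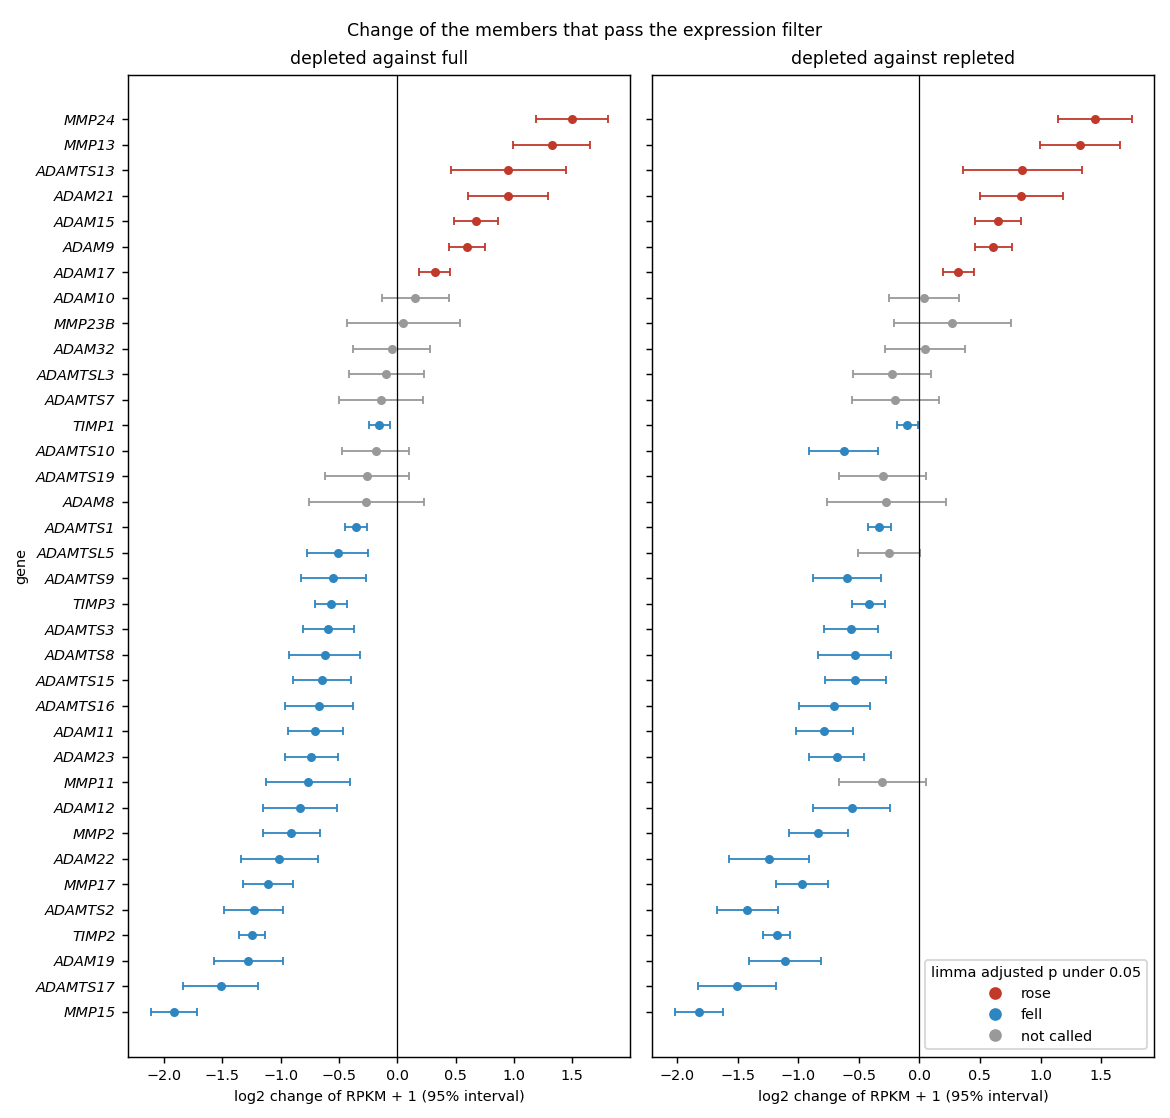
Log2 change of RPKM + 1 with its 95% interval for the 36 members (rows, ordered by the left panel), depleted against full medium on the left and depleted against repleted medium on the right. Red marks genes that rose, blue those that fell and grey those not called; MMP11 and ADAMTSL5 are blue on the left and grey on the right, and ADAMTS10 the reverse.

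Adding Zn(II) back left no member called. In repleted against full medium 0 of 36 passed limma's test, where 0.0317% of all genes did (5 of 15774), and 4 members (11.1%) had an unadjusted p under 0.05, against 7.76% of all genes. These were ADAMTS10 (log2 0.44, limma adjusted p = 0.475), MMP11 (log2 -0.46, limma adjusted p = 0.548), TIMP3 (log2 -0.15, limma adjusted p = 0.602) and ADAMTSL5 (log2 -0.26, limma adjusted p = 0.644). This contrast is also the difference between the 2 depleted comparisons, so the different calls of MMP11, ADAMTSL5 and ADAMTS10 in them are not shown to differ. The groups did not overlap for 7 of the 36, against 12.4% of all genes. Among the genes with large changes in depleted medium, the 95% interval of the log2 difference between repleted and full medium was -0.29 to 0.11 for MMP15 and -0.18 to 0.04 for TIMP2. It was wider for MMP24 (-0.26 to 0.36), ADAMTS17 (-0.33 to 0.32), MMP13 (-0.33 to 0.33), and ADAM22 (-0.10 to 0.56), so smaller differences in these genes were not detectable here. MMP24 and MMP13 had at most 0.34 and 0.27 RPKM in these libraries. For them the interval of log2 of RPKM + 1 does not bound a fold change.

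The 34 members below the expression level reached at most 1.58 RPKM, in MMP25 in repleted replicate 1. Of these, 17 stayed under 0.1 RPKM in every library, and 5 of those (ADAM2, ADAM30, MMP20, MMP26 and MMP27) were listed at 0 throughout. Several of the most studied enzymes were among the 34. MMP14, the membrane-type enzyme that activates MMP2 together with TIMP2, had 0.04 to 0.15 RPKM in depleted, 0.10 to 0.65 in repleted and 0.10 to 0.60 in full medium. MMP9 (gelatinase B) had 0.12 to 0.36 RPKM in depleted and 0.02 to 0.23 in full medium, and MMP1, the interstitial collagenase, was at most 0.02 in any library. The aggrecanase ADAMTS4 had 0.30, 0.36 and 0.50 RPKM in depleted, 0.17, 0.20 and 0.19 in repleted and 0.22, 0.16 and 0.15 in full medium. At the edge of the rule, ADAM8 passed with 0.54 to 1.16 RPKM in depleted and 0.69 to 1.93 in full libraries, while ADAMTS18 missed it with 0.16 to 0.80 in depleted and 0.71 to 0.80 in full libraries.

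Genes that work with these enzymes were followed in lists, read by counts only and against the same 60.9% of all genes called in depleted against full medium. Of 9 tested tetraspanins that carry ADAM10 and iRhom partners of ADAM17, 0 rose and 6 fell (median log2 -0.27). TSPAN5 and TSPAN15, which steer ADAM10, averaged 4.42 ± 0.327 and 8.89 ± 1.14 RPKM in depleted, against 9.92 ± 0.336 and 12.9 ± 0.294 in full medium. Of 19 tested shed substrates, 5 rose and 9 fell (median log2 -0.23). NOTCH2 had 9.26 to 9.5 RPKM in depleted and 19.78 to 23.72 in full medium, while APLP1 averaged 26.2 ± 2.09 in depleted and 16.7 ± 0.347 in full medium. Of 12 tested matrix substrates, 1 rose and 9 fell (median log2 -0.56). COL5A1, among the 9 falls, had 0.67 to 0.7 RPKM in depleted and 1.71 to 2.81 in the other libraries. It passed the expression level only through repleted and full libraries, so its call carries no weight. The proteoglycan VCAN, cut by ADAMTS1, had a log2 change of -1.73, and COL1A1, whose product ADAMTS2 trims, one of -1.05. FN1 was the matrix substrate that rose (log2 0.48, limma adjusted p = 0.000173). Of 9 tested prodomain convertases and serine protease activators, 2 rose and 4 fell (median log2 -0.22). FURIN and PCSK6, convertases that remove inhibitory prodomains, averaged 17.0 ± 1.05 and 24.9 ± 2.09 RPKM in depleted, against 23.2 ± 0.897 and 40.3 ± 3.04 in full medium. PLAT, a plasminogen activator, averaged 3.43 ± 0.455 RPKM in depleted and 14.5 ± 2.04 in full medium (log2 -1.81, SE 0.11, limma adjusted p = 7.47e-07). PLAUR of the same list rose, with 12.35 ± 0.906 RPKM in depleted and 6.57 ± 0.707 in full medium (log2 0.82, SE 0.10, limma adjusted p = 6.61e-05). Of 8 other tested inhibitors and modulators 2 rose and 3 fell (median log2 -0.23), with SPINT1, an inhibitor of serine proteases, at 17.8 ± 1.56 RPKM in depleted and 9.09 ± 0.985 in full medium (SD, n = 3 in each group of this paragraph).

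The libraries had between 17000000 and 23500000 reads by an estimate from the spacing of low values. Of 8 epithelial and HEK293 markers, all above the expression level, 1 rose and 5 fell in depleted against full medium, where 60.9% of all genes were called. NEFL averaged 6.53 ± 0.376 RPKM in depleted and 31.8 ± 1.71 in full medium. PAX2, counted among the 5 falls, had 0.4 to 0.81 RPKM in depleted and 2.98 to 3.61 in full medium. It passed the expression level only through repleted and full libraries, so its call carries no weight. KRT8 had 90.23 to 90.68 RPKM in depleted and 132.08 to 138.31 in full medium, and VIM, the marker that rose, 652.97 to 675.14 in depleted and 572.78 to 583.78 in full medium. Leukocyte, endothelial, hepatocyte and erythroid markers reached at most 1.03, 0.13, 0.4 and 0.02 RPKM in any library. Of 4 fibroblast and muscle markers 3 were tested and 2 fell (LUM and ACTA2), and the part of these marker changes in the results above was not tested.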

How the data were processed

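The authors deposited log2 of RPKM plus 1 per Ensembl gene, per the file headers and the values. Per the submitters' processing notes, the tools were bedtools 2.25.0.3, RSEM 1.2.6, BWA 0.7.12-r1039 and also Bowtie 1.0.1, and the build was GRCh37 (hg19); the role of each tool is not stated. The deposited lengths, another unit in nucleotides, served only for the depth estimate. All 9 libraries, 3 per group, were fitted with limma 3.58.1 in R 4.3.3 on the deposited log2 values, with 1 mean per group and a variance trend. The 15774 genes with at least 1 RPKM in 3 libraries were tested across all genes, with Benjamini-Hochberg adjustment per comparison and a threshold of 0.05. Intervals are 95% and unadjusted. The fit was tested on simulated data.

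The table holds no read counts. Depth was estimated as the total at which most low values of short genes became whole reads within 0.1 (55.5% to 61.8% of those checked), so estimated reads are approximate, and no counting interval or floor was computed. There were 0 columns of unknown sample. Some results are not reported here.

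The genes and lists were chosen with earlier results of these data known. Every tested member is named. Values in every library are given for the 12 called members with the largest change in depleted against full medium and for TIMPs, and also for ADAM9, ADAM10, ADAM15, ADAM17 and ADAMTS4, chosen after their values were seen. The planned search for a protein zinc-binding motif was not run here, so roles are textbook background. Alternatives are named below. Figures used matplotlib 3.10.9 in Python 3.11.15.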

Additional observations from a re-analysis of the deposited data

How the results depend on the processing

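The direction of every called member was kept under all 18 other settings in which it was tested. The number called in depleted against full medium was 28 in the reported fit and in each run that left out 1 library, and 27 after median centring. In depleted against repleted medium it was 27, and 26 to 27 with 1 library left out. A filter of a mean of at least 1 RPKM removed ADAM21, MMP13 and MMP24 from the test, so that 4 members rose in depleted against full and 4 in depleted against repleted medium. Also 4 and 4 rises were counted without the 7 members that passed the expression level on one side only, a setting chosen after seeing the data. Apart from TIMP1, the only call lost was that of ADAMTS13 in depleted against repleted medium with no filter (limma adjusted p = 0.0628). With no filter, ADAMTS20, otherwise untested, was called lower in depleted than in repleted medium. A pseudocount of 0.1 moved the log2 change by over 1.5 times for 11 weakly expressed members in depleted against full medium. Among them MMP24, MMP13, ADAM21 and ADAMTS2 changed by 3.05, 2.97, 2.01 and -1.95. In repleted against full medium 0 members were called in any setting.

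Same-numbered libraries of different groups had residual correlations of -0.014 to 0.073, against -0.061 to 0.042 for other numbers. In 5 of 18 pairings of a library with another group, the highest correlation was with the same number, so the numbers are not taken as pairs. With the replicate block, 28 members were called in depleted against full, 26 in depleted against repleted (TIMP1 lost, limma adjusted p = 0.0783) and 0 in repleted against full medium. Depth limits what can be said of the 34 genes below the expression level.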

Other observations

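Genes of the gamma-secretase complex, which cuts the membrane stubs that ADAM10 and ADAM17 leave behind, moved in both directions in depleted against full medium. APH1B averaged 1.98 ± 0.0551 RPKM in depleted and 7.46 ± 0.961 in full medium (log2 -1.5, SE 0.10, limma adjusted p = 1.6e-06), while its paralog APH1A averaged 90.04 ± 5.19 RPKM in depleted and 113 ± 2.68 in full medium (SD, n = 3 each; log2 -0.33, limma adjusted p = 0.000122). NCSTN, the nicastrin gene, rose to 49.02 ± 2.67 RPKM in depleted medium, against 42.22 ± 1.66 in full medium (SD, n = 3 each; log2 0.21, limma adjusted p = 0.0113).

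Both genes for the enzymes that put a fucose and then a glucose on thrombospondin repeats, a modification that ADAMTS proteins need for secretion, fell slightly. This was in depleted against full medium, where POFUT2 and B3GALTL had log2 changes of -0.26 and -0.23 (limma adjusted p = 0.0221 and 0.0244) and 31.2% of all genes fell. In depleted against repleted medium POFUT2 fell (log2 -0.23, limma adjusted p = 0.0358) and B3GALTL was not called (log2 -0.12, limma adjusted p = 0.213). Of 4 tested relatives of the family outside the naming rule, 1 rose and 2 fell in depleted against full medium, where 60.9% of all genes were called. The pseudogene ADAM1A averaged 2.23 ± 0.499 RPKM in depleted and 1.16 ± 0.139 in full medium (limma adjusted p = 0.00485). THSD4 averaged 1.42 ± 0.0755 RPKM in depleted and 2.43 ± 0.12 in full medium (limma adjusted p = 0.0018), and PAPLN was not called (limma adjusted p = 0.245). BMP1, which removes the carboxyl end of procollagens, averaged 5.54 ± 0.279 RPKM in depleted and 6.82 ± 0.137 in full medium (limma adjusted p = 0.00719). ADAMTS19-AS1, on the strand opposite ADAMTS19, had 0.06, 0.06 and 0.22 RPKM in depleted, 0.99, 1.07 and 1.14 in repleted and 1.24, 1.04 and 1.27 in full medium. ADAMTS19 itself was not called, although its depleted libraries lay below all others (log2 -0.26 against full medium, limma adjusted p = 0.19).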
